A study of Mus musculus with 8 samples.

Results

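The genes described here encode heterogeneous nuclear ribonucleoproteins (hnRNPs) and core proteins of the spliceosome. They were chosen by symbol alone: a gene was taken when its symbol began with Hnrnp, Sf3a, Sf3b, Snrp, Prpf or U2af, or with Lsm followed by a digit. This gave 70 of the 15985 gene symbols in the table, namely 20 hnRNPs and 50 snRNP and core proteins. The 50 comprised 9 SF3A and SF3B subunits, 12 Snrp genes, 13 Prpf genes, 3 U2AF genes and 13 Lsm genes. All 70 passed the filter on low values, as did 15960 symbols in all.

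The spliceosome removes introns with small nuclear ribonucleoproteins (snRNPs), particles of a short RNA and its proteins. U2AF and SF3B recognise the 3' end and the branch site of the intron, a ring of Sm proteins or of the related LSm proteins holds the RNA of each snRNP, and most Prpf proteins, named after yeast pre-mRNA processing mutants, act in the particles that carry out catalysis. The hnRNPs coat nascent transcripts and strengthen or weaken nearby splice sites, and several of them also govern mRNA stability. The prefixes also bring in genes outside splicing, such as Lsm1 and Lsm14a, which act in cytoplasmic mRNA decay and translational repression, and Lsm10 and Lsm11, which process histone mRNA with the U7 snRNP.

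The study profiled isolated pancreatic islets by bulk RNA sequencing to ask what the loss of the transcription factor Sox9 in beta cells does to their transcripts. The 4 mice labelled KO carried Ins-Cre and a pair of floxed Sox9 alleles (Ins-Cre;Sox9fl/fl). Among the 4 mice labelled WT, replicate 1 was Sox9fl/fl, replicate 2 Sox9fl/+, replicate 3 Sox9+/+ and replicate 4 Sox9+/fl. With 0 of the 4 carrying Cre, effects of Cre and of Sox9 loss cannot be told apart. All were of mixed strain and 13 to 16 months old. Cre is driven by the insulin promoter, so that other islet cells keep Sox9, and in whole islets fewer cells of a type and less RNA per cell cannot be told apart.

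Estimated depth was 11.1 to 19.2 M reads in KO-labelled libraries and 13.2 to 26.3 M in WT libraries, and 1 read was worth 0.657 to 1.37 units of the normalized value that is used throughout (estimated reads of a gene divided by a size factor of the library). Ins2, an insulin gene made by beta cells, took 20.5 to 28.6% of each library. Sox9 read 36.6, 16.4, 20.6 and 11.7 in KO-labelled libraries, against 23.3, 37.3, 13.4 and 13.3 in WT libraries (log2 fold change −0.02, SE 0.44, adjusted p = 0.99 from limma, a linear model fitted across all genes), so that its level did not check the labels. The summed value of 23 acinar genes was 104220 to 271500 in KO-labelled libraries and 39142 to 195210 in WT libraries. That of 18 immediate early genes was 221250 to 403490, against 51359 to 179090 in WT libraries. The summed value of 4 Y-linked genes was 2388 to 2549 in KO-labelled libraries, and 2711.9, 2367, 117 and 2495 in WT libraries 1 to 4, so that WT library 3 stood apart from the other 7. The paper states that the mice used for RNA sequencing were male. The cause of the low value in WT library 3 was not tested.

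None of the 70 genes passed limma at an adjusted p of 0.05, where 9 of the 15960 genes tested did (0.0564%), 6 of them higher (0.0376%) and 3 lower (0.0188%) in KO-labelled libraries. At an unadjusted p below 0.05, 5 members were left (7.14%, against 10.7% of all genes tested). Of these, Prpf39, Prpf38b and Hnrnph1 were higher in KO-labelled libraries (4.29% of members, against 4.34% of all genes), and Hnrnpd and Prpf8 were lower (2.86%, against 6.36%). The upstream sequences of these 5 genes are printed because the deleted gene encodes a transcription factor. Each run holds the 250 bases before the RefSeq start of the gene, 5′ to 3′ on the strand of the gene (build GRCm38.p6). Capitals mark the letters ACAAT or ACAAAG (a SOX core motif), TGACGTCA (a cyclic AMP response element) and CCGGAAG (an ETS motif) on either strand.
Prpf39 (chr12:65036084-65036333, plus strand): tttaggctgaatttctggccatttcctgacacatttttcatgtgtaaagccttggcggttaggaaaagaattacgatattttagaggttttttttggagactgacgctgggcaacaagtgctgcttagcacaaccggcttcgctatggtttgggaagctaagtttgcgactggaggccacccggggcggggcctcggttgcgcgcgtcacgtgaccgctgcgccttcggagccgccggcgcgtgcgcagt
Prpf38b (chr3:108911730-108911979, minus strand): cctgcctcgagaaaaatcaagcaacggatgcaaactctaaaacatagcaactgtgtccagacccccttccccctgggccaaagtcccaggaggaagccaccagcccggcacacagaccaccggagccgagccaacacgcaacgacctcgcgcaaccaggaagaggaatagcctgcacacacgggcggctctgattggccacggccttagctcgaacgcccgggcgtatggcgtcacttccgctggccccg
Hnrnph1 (chr11:50376740-50376989, plus strand): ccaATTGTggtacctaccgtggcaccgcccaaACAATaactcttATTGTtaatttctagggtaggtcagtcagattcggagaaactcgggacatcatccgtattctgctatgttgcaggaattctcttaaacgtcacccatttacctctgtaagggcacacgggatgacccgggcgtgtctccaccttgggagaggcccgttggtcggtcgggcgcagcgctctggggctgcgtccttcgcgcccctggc
Hnrnpd (chr5:99978939-99979188, minus strand): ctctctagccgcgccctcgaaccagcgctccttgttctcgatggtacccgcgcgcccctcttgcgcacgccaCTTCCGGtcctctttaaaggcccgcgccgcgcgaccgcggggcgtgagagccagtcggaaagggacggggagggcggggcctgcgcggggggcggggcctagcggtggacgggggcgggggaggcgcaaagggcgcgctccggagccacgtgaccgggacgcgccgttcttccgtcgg
Prpf8 (chr11:75486527-75486776, plus strand): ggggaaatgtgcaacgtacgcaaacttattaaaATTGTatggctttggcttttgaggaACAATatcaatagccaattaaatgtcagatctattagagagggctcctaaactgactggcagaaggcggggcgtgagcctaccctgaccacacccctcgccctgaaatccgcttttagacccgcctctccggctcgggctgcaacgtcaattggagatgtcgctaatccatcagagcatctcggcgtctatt

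The SOX letters stood in the windows of Hnrnph1 and Prpf8 and not in those of Prpf39, Prpf38b and Hnrnpd. Of the 70 members, 58 had a RefSeq promoter, and 14 of these held the SOX letters (24.1%), against 28.7% of 12015 promoters. They occurred in 6 of 18 hnRNP promoters (33.3%) and in 8 of 40 promoters of snRNP and core proteins (20%). The ETS letters were found in 12 of the 40 core promoters (30%) and in 2 of the 18 hnRNP promoters (11.1%), against 12.1% of all promoters. TGACGTCA was present in 2 members (3.45%, against 2.56%), and the GC box letters GGGCGG in 35 (60.3%, against 55.3%). A promoter with several SOX matches was counted once, the motifs were counted apart on both strands, and a match describes the sequence only.

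**Figure D1:**
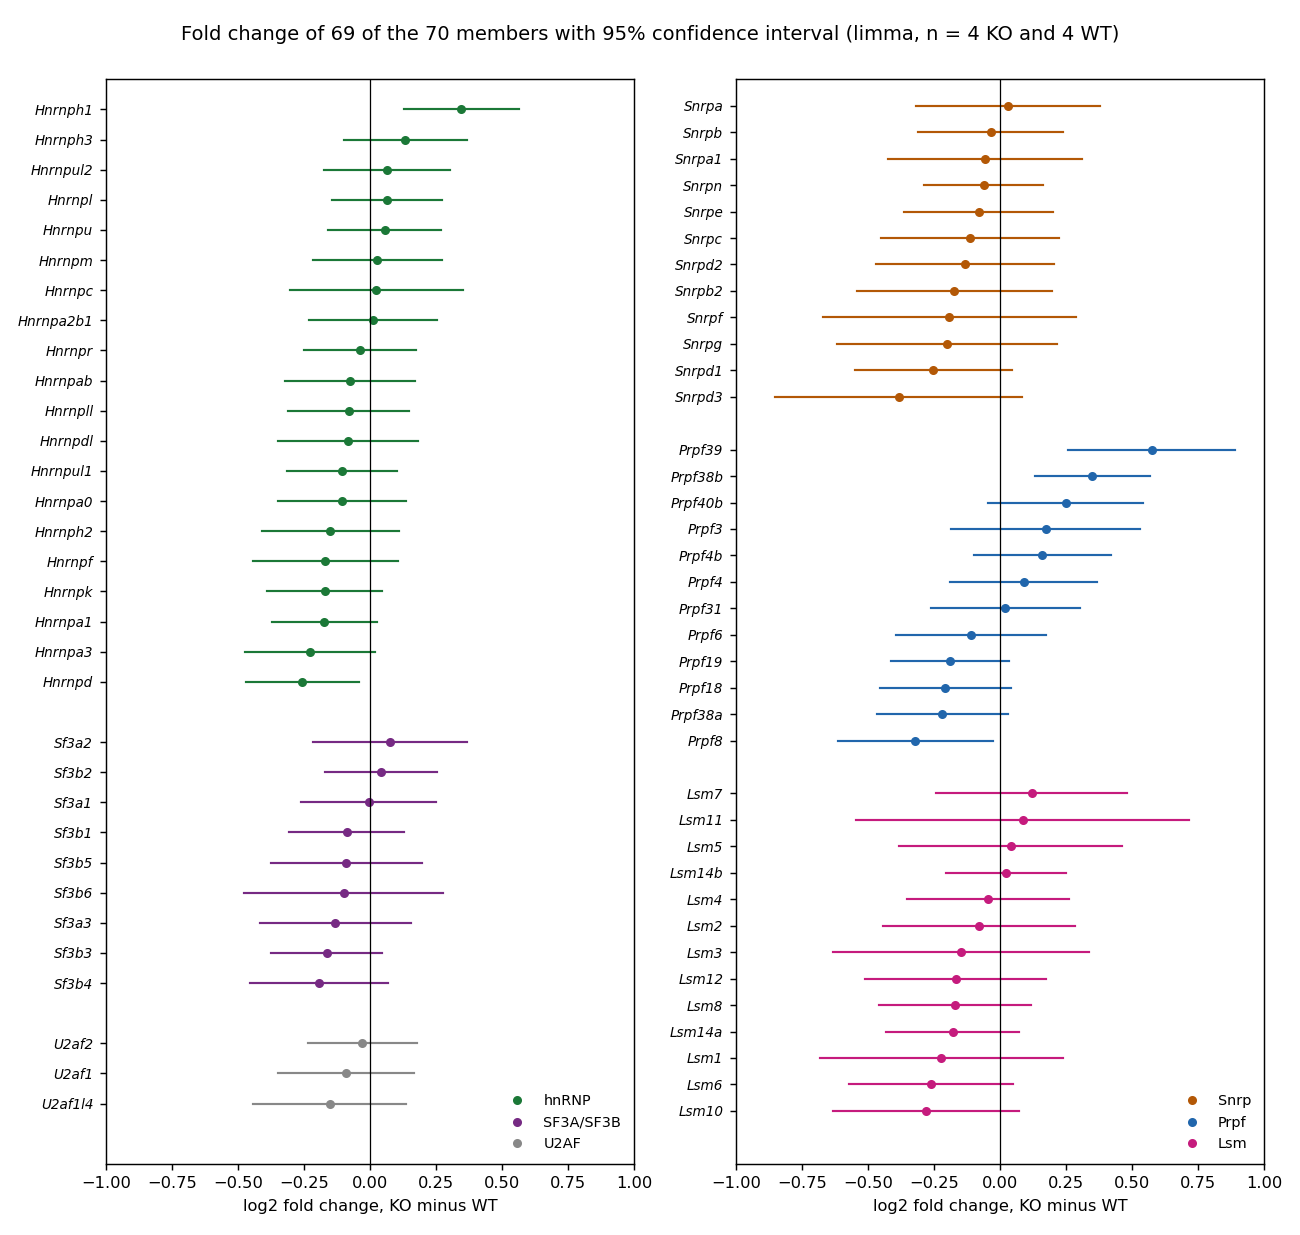
Log2 fold change of 69 of the 70 members, KO minus WT (x axis), with its 95% confidence interval from limma, genes on the y axis sorted within each class and coloured by class. Prpf39, Prpf38b and Hnrnph1 lie to the right of 0 with intervals that leave out 0, Hnrnpd and Prpf8 to the left, and every interval shown stays within a log2 change of 1.

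The fold changes of the members were small and lay within narrow limits. Their median size was 0.12 on the log2 scale, against 0.18 over all genes tested, and 5 of 70 (7.14%) exceeded 0.3 in size, against 30% of all genes. Levels were not matched in this comparison. The lowest mean value of a member was 51.6, whereas only 14435 of the 15960 genes had a mean above 10. The part of level in these shares was not tested. The 95% confidence interval, taken gene by gene, left out a 2-fold change for 70 of 70 members and a 1.5-fold change for 60. All 20 hnRNPs were among those 60, and the 10 others, all core genes, included Lsm1, Lsm3, Lsm10, Lsm11, Prpf8, Prpf39, Snrpd3, Snrpf and Snrpg. Replicates of the hnRNPs lay closer together than those of the core genes: the median coefficient of variation was 6.59% in KO-labelled and 8.41% in WT libraries for hnRNPs, and 11.5% in KO-labelled and 11.4% in WT libraries for core genes. The hnRNPs also had higher values, with a median of 2497 against 347 for the core genes. The part of level in this difference was not tested.

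Prpf39, which encodes a protein of the yeast U1 snRNP whose mammalian form modulates splice site choice, had the smallest p of the set. It read 925.6, 805.6, 826.0 and 775.3 in KO-labelled libraries, against 415.3, 596.6, 580.6 and 675.6 in WT libraries. The groups did not overlap, and WT library 1 was the lowest of all. The log2 fold change was 0.57 (SE 0.15, limma adjusted p = 0.175, rank 176 of all genes by p), and it was 0.43 without WT library 1. The gene spans positions 65036333 to 65063386 on the plus strand of chromosome 12 (GRCm38), and 2 of its 10 annotated transcripts are targets of nonsense-mediated decay while 6 retain an intron.

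Prpf38b, related to the yeast tri-snRNP maturation protein Prp38, stood at 1703, 1502, 1803 and 1616 in KO-labelled libraries, against 1285, 1394, 1221 and 1293 in WT libraries. Every KO-labelled value was above every WT value, with a log2 fold change of 0.35 (SE 0.10, limma adjusted p = 0.226). Its paralogue Prpf38a, a subunit of the spliceosome before activation that was picked out after its values were seen, had 696, 703, 754 and 644 in KO-labelled libraries, against 899, 871, 810 and 687 in WT libraries. The paralogues had fold changes of opposite sign, a difference that was not tested, with −0.22 on the log2 scale for Prpf38a (SE 0.11, limma adjusted p = 0.529), whose groups overlapped through WT library 4. Hnrnph1, which binds runs of G near splice sites, had 2717, 2283, 2550 and 2402 in KO-labelled libraries, against 1812, 1931, 2101 and 1980 in WT libraries. Again the groups lay apart, with a log2 fold change of 0.35 (SE 0.10, limma adjusted p = 0.232). Prpf38b lies on chromosome 3 (108902805 to 108911727, minus strand) and Hnrnph1 on chromosome 11 (50376990 to 50386528, plus strand).

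Hnrnpd (AUF1), which binds AU-rich elements of short-lived mRNAs, was the hnRNP with the lowest fold change. Its values were 1344, 1421, 1463 and 1288 in KO-labelled libraries, against 1656, 1583, 1797 and 1553 in WT libraries. They did not overlap, and the log2 fold change was −0.26 (SE 0.10, limma adjusted p = 0.378). Prpf8, the scaffold protein of the U5 snRNP at the catalytic centre, had 4070, 4505, 3656 and 4381 in KO-labelled libraries, against 6079, 4035, 5352 and 5451 in WT libraries. WT library 2 lay within the range of the KO-labelled libraries and the other 3 above it. The log2 fold change was −0.32 (SE 0.13, limma adjusted p = 0.422). It was −0.44 (limma adjusted p = 0.184) without WT library 2 and −0.24 without WT library 1. The unadjusted limma p of Prpf8 stayed below 0.05 without KO-labelled library 2, KO-labelled library 4 or WT library 2. When any other library was left out, it did not.

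Groups did not overlap in 6 members (8.57%), against 6.35% of all genes tested. The 3 in which KO-labelled libraries were higher (4.29%, against 2.67%) were Prpf39, Prpf38b and Hnrnph1, and the 3 in which they were lower (4.29%, against 3.68%) were Hnrnpd, Hnrnpa1 and Sf3b3. Hnrnpa1, a repressor of splice sites, had 3038, 2978, 3157 and 2874 in KO-labelled libraries, against 3513, 3303, 3379 and 3391 in WT libraries. Its replicates agreed within a coefficient of variation of 3.93% in KO-labelled and 2.56% in WT libraries, and the log2 fold change was −0.17 (SE 0.09, limma adjusted p = 0.531). Sf3b3, a large subunit of the U2-bound SF3B complex, had 1089.9, 1086, 1140.3 and 1071 in KO-labelled libraries, against 1355, 1224, 1181 and 1163 in WT libraries. The gap between the groups was small beside the scatter of the WT libraries (log2 fold change −0.16, SE 0.10, limma adjusted p = 0.582).

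**Figure D2:**
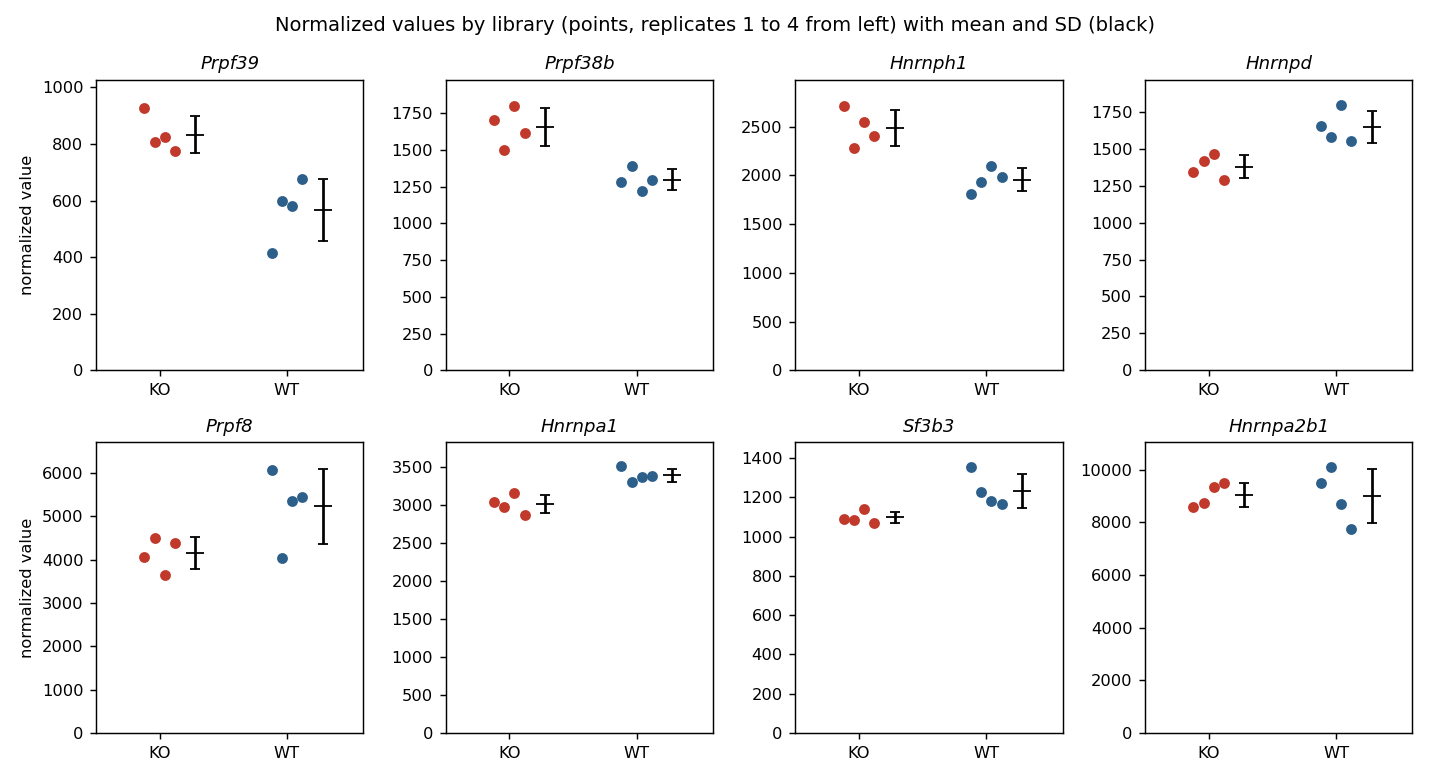
Normalized value (y axis, from 0) of 8 members in each library, KO left and WT right, replicates 1 to 4 from left to right, with mean and SD in black (n = 4). Prpf39, Prpf38b and Hnrnph1 are higher without overlap in KO-labelled libraries, Hnrnpd, Hnrnpa1 and Sf3b3 lower without overlap, whereas WT library 2 of Prpf8 (4035) falls among the KO-labelled values and Hnrnpa2b1 overlaps throughout.

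Among the hnRNPs as a class, 12 of 20 log2 fold changes were negative (60%), against 55.1% of all genes tested. Their median was −0.08, with a range from −0.26 for Hnrnpd to 0.35 for Hnrnph1, and the median of all genes was −0.03. The hnRNP median was 0.00 after quantile normalization, −0.04 without KO-labelled library 1 or WT library 1 and −0.11 without WT library 4, where the median of all genes was −0.01, −0.02, −0.02 and −0.04. Per kilobase of merged exons, levels ran from 57.6 for Hnrnpr to 1699 for Hnrnpab. The highest normalized value, uncorrected for length, was that of Hnrnpa2b1, a relative of Hnrnpa1 that also sorts RNA into granules and vesicles, with 8576, 8730, 9339 and 9515 in KO-labelled libraries, against 9500.3, 10107, 8688 and 7740 in WT libraries. The groups overlapped, and the log2 fold change of 0.01 (SE 0.11) changed sign to −0.09 under quantile normalization.

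Subfamilies of the hnRNPs were set apart by their symbols after the values were seen. In the A group, 3 of 4 genes had negative fold changes. Hnrnpa3 had 2300, 2660, 2627 and 2656 in KO-labelled libraries, against 3435, 3061, 2969 and 2564 in WT libraries, so that only WT library 4 reached down to the KO-labelled values (log2 fold change −0.23, SE 0.11, limma adjusted p = 0.509). In the D group (Hnrnpab, Hnrnpd and Hnrnpdl) the 3 fold changes lay between −0.26 and −0.08.

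The 4 genes of the F and H group, whose proteins bind the same G-rich letters, were divided, with 2 higher and 2 lower. Beside Hnrnph1, Hnrnph3 had 916, 823, 964 and 918 in KO-labelled libraries, against 729.8, 890.2, 885 and 803 in WT libraries (log2 fold change 0.13, SE 0.11). Hnrnph2, which lies on the X chromosome, had 1594, 1670.4, 1943 and 1535 in KO-labelled libraries, against 1981, 2011, 1938 and 1564 in WT libraries (log2 fold change −0.15, SE 0.12). Values of both overlapped between the groups. Hnrnpf had 3463, 3793, 3827 and 3559.8 in KO-labelled libraries, against 5021, 4384, 3841 and 3384 in WT libraries, and WT library 4 was below all KO-labelled libraries (log2 fold change −0.17, SE 0.13, and −0.07 without WT library 1 or −0.26 without WT library 4). For Hnrnph3, Hnrnph2 and Hnrnpf limma's adjusted p lay between 0.672 and 0.697. Hnrnpk, which binds runs of C in RNA and DNA, had 2315, 2446, 2580.3 and 2243 in KO-labelled libraries, against 2815, 2531, 2908 and 2551 in WT libraries, where KO-labelled library 3 was the only one to enter the WT range (log2 fold change −0.17, SE 0.10, limma adjusted p = 0.580).

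The hnRNPs not given by library had log2 fold changes between −0.11 and 0.07. They include Hnrnpu, a scaffold protein of nuclear RNA and chromatin (mean 1625 in KO-labelled and 1562 in WT libraries, log2 0.06, SE 0.10), and Hnrnpl, which binds CA repeats (4289.6 and 4105, log2 0.06, SE 0.09). Hnrnpc, which binds U-rich tracts and limits inclusion of Alu exons in human cells, averaged 4319 in KO-labelled and 4319 in WT libraries, with a wide WT range of 3182 to 5385.

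Of the 50 snRNP and core genes, 36 had a negative fold change (72%), against 55.1% of all genes tested. Their median was −0.09, and it was −0.05 without WT library 1 and −0.15 without WT library 4. Counted without regard to size, 48 of the 70 members were negative (68.6%). The 7 Sm ring genes, a subgroup set apart after the values were seen, were all negative, with a median of −0.19, and 11 of the 12 Snrp genes were. Among the classes the medians of the fitted log2 fold changes were −0.15 for Lsm, −0.12 for Snrp, −0.09 for SF3 and U2AF and 0.02 for Prpf. None of these 5 classes held a gene that passed the adjusted test, and the signs are not independent of each other, since the genes share libraries.

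Snrpd3, an Sm ring protein, had the lowest fold change of the 70, with 211, 237, 374 and 252 in KO-labelled libraries, against 438, 368, 362 and 236 in WT libraries. Its groups overlapped because KO-labelled library 3 was high and WT library 4 low (log2 fold change −0.38, SE 0.21, limma adjusted p = 0.561). Snrpd1, also of the Sm ring, had 181.6, 213, 237 and 193 in KO-labelled libraries, against 256, 278, 225 and 221 in WT libraries (log2 fold change −0.25, SE 0.14, limma adjusted p = 0.549). Here KO-labelled library 3 alone lay inside the WT range. Snrpg, the smallest ring protein, had 162, 132, 187 and 107 in KO-labelled libraries, against 146, 201, 175 and 147 in WT libraries (log2 fold change −0.20, SE 0.19). That value was −0.06 without KO-labelled library 4 and −0.33 without KO-labelled library 3. Snrpb, by level the first of the Snrp genes with 686 per kilobase, had 1306, 1370.3, 1518 and 1156 in KO-labelled libraries, against 1565, 1503, 1239 and 1191 in WT libraries. Its log2 fold change of −0.04 (SE 0.13) had the opposite sign, 0.05, after quantile normalization. Snrpn, which encodes SmN, a close relative of the SmB protein, shares its locus with Snurf, so that its reads may be divided between the 2 annotated genes (log2 fold change −0.06, SE 0.10).

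In the SF3 class, which binds the U2 snRNP to the branch site, 7 of 9 fold changes were negative. Sf3b4 had 426, 427, 492 and 434 in KO-labelled libraries, against 571, 533, 514 and 424 in WT libraries, and the lowest value of all was WT library 4 (log2 fold change −0.19, SE 0.12, limma adjusted p = 0.604). Sf3a3 had 188, 220.1, 253 and 204 in KO-labelled libraries, against 251, 242, 222 and 227 in WT libraries, with KO-labelled library 3 above all WT values (log2 fold change −0.13, SE 0.13). Sf3b1, which holds the branch site and is the target of splicing inhibitors, had 2319, 2295, 2145 and 2189.9 in KO-labelled libraries, against 2464, 2144, 2605 and 2326 in WT libraries. The overlap was broad and the log2 fold change −0.09 (SE 0.10), or 0.02 after quantile normalization. The U2AF genes showed no separation either. U2af2, whose product binds the polypyrimidine tract, had 1973, 1944, 1991 and 1831 in KO-labelled libraries, against 2046, 2062, 1975 and 1821 in WT libraries (log2 fold change −0.03, SE 0.09, and 0.07 after quantile normalization). U2af1, which reads the AG at the 3' splice site, had 699, 609, 780.1 and 673 in KO-labelled libraries, against 793, 696, 804 and 645 in WT libraries (log2 fold change −0.09, SE 0.12). For its paralogue U2af1l4 the values were 195, 234, 219.5 and 182 in KO-labelled libraries, against 205, 251, 229 and 236 in WT libraries (log2 fold change −0.15, SE 0.13).

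The Prpf genes were the most divided class, with 7 positive and 6 negative fold changes, from −0.32 for Prpf8 to 0.57 for Prpf39. Of the 5 that belong to the tri-snRNP, the particle of U4, U5 and U6, Prpf3, Prpf4 and Prpf31 were between 0.02 and 0.17, and Prpf6 and Prpf8 were −0.11 and −0.32. Prpf40b, a U1-associated protein, was at 0.25 (SE 0.13, limma adjusted p = 0.550). The SD that kallisto attached to its estimates was 0.02 on the natural log scale at the median of the hnRNPs and 0.05 at the median of the core genes.

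Of the 13 Lsm genes, 9 had negative fold changes, and the range was from −0.28 for Lsm10 to 0.12 for Lsm7. As a class they had low values, with a median of 127 over the means of the genes, against 2497 for the hnRNPs. Lsm6 belongs to the LSm rings that bind U6 RNA in the nucleus and mRNA in the cytoplasm. It had 990.5, 767, 977 and 759 in KO-labelled libraries, against 1130.4, 1136, 1109 and 819 in WT libraries. WT library 4 was the only WT value within the KO-labelled range (log2 fold change −0.26, SE 0.14, limma adjusted p = 0.548). Lsm10, of the U7 snRNP, had 81.6, 96.3, 109 and 97.9 in KO-labelled libraries, against 105, 117, 113 and 132 in WT libraries, and KO-labelled library 3 alone crossed into the WT range (log2 fold change −0.28, SE 0.16, limma adjusted p = 0.578). For Lsm10 the estimation variance was 167% of the variance between libraries of a group. Lsm14a had 574, 724, 701 and 652 in KO-labelled libraries, against 855, 734, 695 and 718 in WT libraries (log2 fold change −0.18, SE 0.12, limma adjusted p = 0.614). Its paralogue Lsm14b, the Lsm gene with the highest value, had 1285, 1377, 1370 and 1200 in KO-labelled libraries, against 1457, 1232, 1184 and 1288 in WT libraries (log2 fold change 0.02, SE 0.10).

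hnRNPs and core genes were then compared by library. Each gene's log2 value was centred on its mean over the 8 libraries and averaged over the class. The hnRNPs scored −0.06, −0.04, 0.06 and −0.06 in KO-labelled libraries, against 0.10, 0.04, 0.04 and −0.09 in WT libraries. The core genes scored −0.12, −0.07, 0.13 and −0.08 in KO-labelled libraries, against 0.13, 0.10, 0.00 and −0.10 in WT libraries. In both classes KO-labelled library 3 stood above the other KO-labelled libraries and WT library 4 below the other WT libraries, and the groups overlapped. The difference between the classes (hnRNPs minus core) was 0.07, 0.03, −0.07 and 0.02 in KO-labelled libraries, against −0.03, −0.06, 0.03 and 0.01 in WT libraries, and its group means differed by 0.02. The difference between the 2 medians of fold changes ran from −1e-04 without WT library 2 to 0.06 without WT library 3, and was 0.06 after quantile normalization, so that no direction can be given to it. As a share of the summed values of a library the hnRNPs took 0.332 to 0.384% in KO-labelled libraries and 0.322 to 0.365% in WT libraries. The core genes took 0.187 to 0.218% in KO-labelled and 0.190 to 0.210% in WT libraries. By this share KO-labelled library 3 was the lowest of the KO-labelled libraries in both classes (0.332% and 0.187%). KO-labelled library 1 was the highest (0.384% and 0.218%), so that the place of KO-labelled library 3 depends on the scaling. WT library 4 was the lowest WT library by share too.

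**Figure D3:**
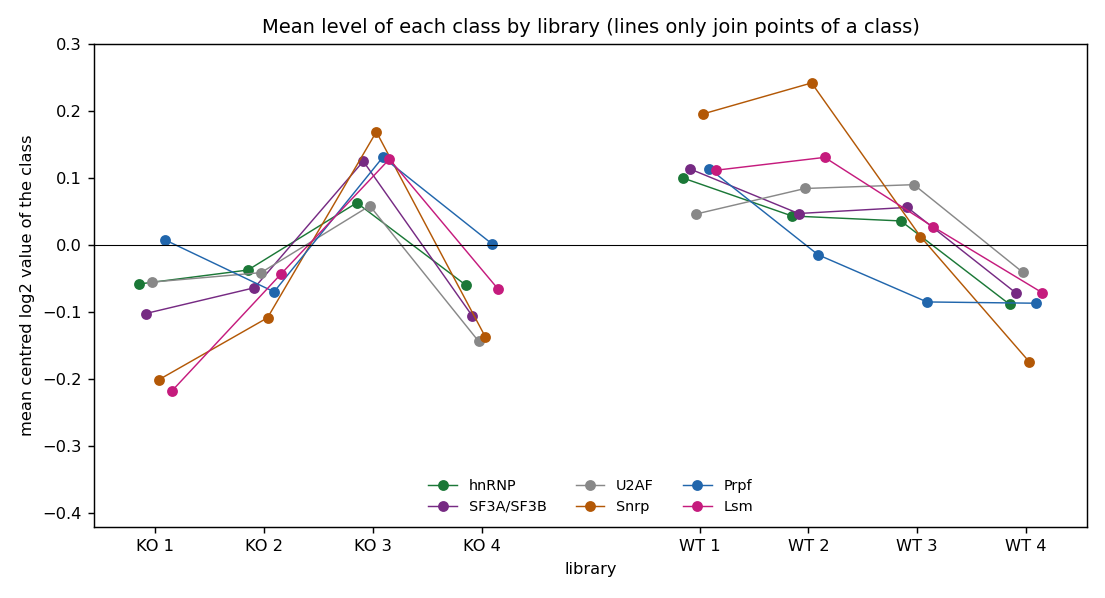
Mean centred log2 value of each class (y axis) in each of the 8 libraries (x axis, KO left, WT right), with lines that only join the points of a class. KO 3 is above the other KO-labelled libraries in every class, with Snrp at 0.17, and WT 4 is the lowest WT library in every class, with Snrp at −0.17.

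Part of the spread of the normalized values inside each group was shared by most members. KO-labelled library 3 held the highest of the 4 KO-labelled values in 50 of 70 members (71.4%), where it did so in 36% of all genes tested. It was the highest for 14 of 20 hnRNPs (70%) and 36 of 50 core genes (72%). WT library 4 held the lowest WT value in 40 of 70 members (57.1%, against 29.1% of all genes), and WT library 1 the highest in 34 (48.6%, against 34.9%). The widest swing was that of the Snrp genes, with −0.20, −0.11, 0.17 and −0.14 in KO-labelled libraries, against 0.20, 0.24, 0.01 and −0.17 in WT libraries. The Prpf genes did not follow them in every library, with scores of 0.01 in KO-labelled library 1 and −0.01 in WT library 2. Estimated depth was 11.1, 11.9, 19.2 and 19.1 M reads in the KO-labelled libraries, against 23.1, 26.3, 13.2 and 13.5 M in WT libraries. The acinar and immediate early sums were highest in KO-labelled library 3 (271500 and 403490). Among KO-labelled libraries it also held the highest marker sums of beta (6.3744e+06), endothelial (15240) and macrophage (2576.5) cells. Its alpha cell sum was the lowest of them (1.8072e+05), and the delta, PP, duct and stellate sums were highest in other KO-labelled libraries. The part of depth, acinar RNA and immediate early genes in this pattern was not tested.

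Counts of members without overlap rested on these libraries. KO-labelled library 3 and WT library 4 were singled out as the highest and lowest of their groups over these same members. Leaving either out raises the counts of lower members by that choice, and no decrease is read from them. Without KO-labelled library 3 the groups did not overlap in 11 members that were lower in KO-labelled libraries (15.7%, against 6.96% of all genes), and the negative fold changes numbered 55 of 70. Without WT library 4 they numbered 54, with 10 members lower without overlap (14.3%, against 7.65%) and 7 lower at an unadjusted p below 0.05 (10%, against 7.77%): Hnrnpa3, Hnrnpd, Hnrnpf, Lsm6, Prpf38a, Sf3b4 and Snrpd3. Without WT library 3, which held little Y-linked RNA, 0 members were lower at an unadjusted p below 0.05 (against 5.39% of all genes) and 50 fold changes were negative. The median log2 fold change of all genes moved too. It was −0.033 with every library, −0.046 without KO-labelled library 3, −0.042 without WT library 4 and −0.049 without WT library 3. Prpf39, Prpf38b and Hnrnph1 had an unadjusted p below 0.05 whichever library was left out and under each other setting tried. These genes were named for their small p in the same libraries, and the settings reuse those libraries. The share of all genes that stay below 0.05 in this way was not counted. No member passed the adjusted test in any setting, the smallest member's adjusted p in a setting being that of Prpf39 or Prpf38b and running from 0.110 to 0.364.

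Genes of the same pathways outside the 70 were read from lists of splicing factors. Of 62 other core spliceosome genes, 4 were higher (6.45%, against 4.34% of all genes tested) and 1 lower (1.61%, against 6.36%) at an unadjusted p below 0.05, 0 passed limma's adjusted test, and the median log2 fold change was −0.04. The 4 were Thoc1 of the mRNA export complex TREX (0.49), Luc7l3, a U1-associated factor (0.42), the RNA helicase Ddx39b (0.32) and Snrnp70, the U1-70K protein (0.31), and the lower one was Smu1 (−0.25). Snrnp70 belongs to the U1 snRNP by function but not by prefix. It had 903, 816, 842 and 929 in KO-labelled libraries, against 591, 744, 721 and 767 in WT libraries, which did not overlap (SE 0.11, limma adjusted p = 0.348). Snrpa and Snrpc, the other proteins specific to U1, were at 0.03 (SE 0.16) and −0.12 (SE 0.15). Of 25 other hnRNP-type genes, 3 were higher (12%, against 4.34%) and 2 lower (8%, against 6.36%) at an unadjusted p below 0.05, with 0 past limma's adjusted test and a median of 0.02. Sfpq, a paraspeckle protein, had 1268, 1273, 1282 and 1238 in KO-labelled libraries, against 848, 1034.5, 832 and 966 in WT libraries (log2 fold change 0.46, SE 0.10, limma adjusted p = 0.128), and Safb2 and Safb, which bind scaffold-attached DNA and RNA, had 0.44 and 0.41. Matr3 and Pcbp4 were at −0.22 and −0.49. Of 18 genes of snRNP assembly, 1 was higher at an unadjusted p below 0.05 (5.56%, against 4.34%), Gemin2 of the SMN complex (0.45, SE 0.19), 0 passed limma's adjusted test and the median was −0.05.

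Many of the members have annotated transcripts that the cell does not translate in full, a form through which splicing factors are known to be regulated. By the GENCODE annotation of GRCm38, 29 of 70 (41.4%) had a transcript of the nonsense-mediated decay class, against 25.2% of all genes tested, and 51 (72.9%) had a retained-intron transcript, against 51.7%. Members also had more annotated transcripts (median 5, against 4), and the shares were not corrected for that number. Of the genes with the smallest p, Prpf38b had 2 decay and 3 retained-intron transcripts among 8, while Hnrnph1 had 0 and 0 among 18. The values used here are gene totals, in which productive and unproductive transcripts are summed, and transcripts were not analysed here.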

How the data were processed

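The authors extracted islet RNA (RNeasy), made stranded KAPA libraries, trimmed reads with cutadapt (1.13), estimated reads per transcript with kallisto (0.46.1) on the Ensembl GRCm38 transcriptome and summed them per gene in sleuth. The deposited library columns hold this normalized signal. The deposited mean over libraries is on the natural log scale, and the deposited technical variance of kallisto's estimates (unit other) on the same scale gave the estimation error. The deposited fold changes and test values of the authors were not used. Lines repeated for a symbol were dropped and distinct identifiers summed. This matched the deposited mean within 1e-06 for 15938 of 15985 symbols. Reads shared by similar genes can be exchanged between them.

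Low values gave the depth of each library, but only 58.6 to 65.2% of them lay within 0.05 reads of a whole number, so that no count test was run. Genes above 1 in at least 4 libraries were tested on log2(value + 0.5) with limma (3.58.1, R 4.3.3; trended robust prior, group only, two-sided, Benjamini-Hochberg over 15960 genes, threshold 0.05) in place of sleuth's Wald test, and the script was tested on simulated data. Fold changes are KO minus WT on that scale. Values by library are given for members whose groups did not overlap, the 8 hnRNPs and the 3 members of each other class with the smallest p, and the most abundant member of each class. A result for 1 member is counted but not reported here by name. Members and lists were chosen with earlier results of these data known. The labels do not say whether a library pooled islets of several mice, so that p-values measure the spread between these 8 libraries. Alternatives were pseudocounts, filters, scalings, the prior, a replicate block, an acinar covariate and leaving out each library.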

Additional observations from a re-analysis of the deposited data

Results flagged for a closer look

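In 4 of 56 groups of 4 values examined, a single library lay far from the other 3, by a test of the gap relative to the range that marks about 1 group in 20 by chance. Hnrnpa3 had 2300 in KO-labelled library 1, where the nearest KO-labelled value was 2627. Hnrnph2 had 1564 in WT library 4, where the nearest WT value was 1938. Lsm6 had 819.3 in WT library 4, with the next WT value at 1109. Sf3b4 had 491.8 in KO-labelled library 3, with the next KO-labelled value at 434. WT library 4 and KO-labelled library 3 are the libraries that were also the lowest and the highest of their groups over most members. The part of any technical difference between these libraries was not tested.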

How the results depend on the processing

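Over the alternatives the members called at an adjusted p of 0.05 stayed at 0. The 9 calls among all genes became 14 with a pseudocount of 1, 17 after quantile normalization, 1 with neither a trended nor a robust prior, 4 with the acinar score as a covariate, and 1 to 58 when a library was left out (58 without WT library 2). Members lower at an unadjusted p below 0.05 numbered 2, where 6.36% of all genes were lower. They became 1 after median-of-ratios rescaling (5.39% of all genes), 0 after quantile normalization (5.66%) and 1 without trended and robust prior (5.28%). With the acinar covariate they were 1 (5.34%), and without a library 0 to 7 (3.98 to 7.77%). Members without overlap numbered 3 to 11 (lower, where 4.57 to 7.65% of all genes did) and 3 to 4 (higher, where 3.73 to 4.78% did) without a library. The difference of class medians, 0.02, ran from −1e-04 to 0.0589 without a library and was 0.0642 after quantile normalization. The hnRNP median, −0.08, ran from −0.1139 to −0.0358 without a library and was −0.0024 after quantile normalization and −0.0406 after median-of-ratios rescaling. The core median, −0.09, ran from −0.1489 to −0.051 and was −0.0666 and −0.0563. Signs turned for members near 0: Snrpb (0.0015 after median-of-ratios rescaling, 0.051 after quantile normalization, −0.102 to 0.0317 without a library), U2af2 (0.0085 and 0.0666), Hnrnpa2b1 (−0.091 after quantile normalization, −0.0598 to 0.0685 without a library), Sf3b1 (0.0246 after quantile normalization) and Lsm14b (−0.0494 with the acinar covariate, −0.018 to 0.0817 without a library). The cause was not tested. The all-gene median was −0.03, 0.00 and −0.01 under the 3 scalings, with 48, 44 and 42 members negative.

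Same-numbered libraries of the groups did not deviate together (r = −0.16, −0.03, −0.12 and 0.07 over genes), and the labels name no pairs. Values were centred within each group of 4 first, which constrains these r values, so that they cannot exclude a pairing. The largest r between a KO-labelled and a WT library was 0.27, for KO-labelled library 3 and WT library 1. Its cause was not tested. With the replicate block 6 genes and 0 members were called, and 0 members were lower at an unadjusted p below 0.05 (against 4.44% of all genes). A single read is worth 0.657 to 1.37 units, which limits Lsm genes with values near 50.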
